A study of Mus musculus with 2 samples.

Results

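Effector and memory CD4+ T-cells were taken as the cells that the study's cell table annotates EffCD4T or MemCD4T, matched by cell identifier to the columns of the RNA count table. They numbered 53 of the 978 annotated blood cells, with 45 EffCD4T and 8 MemCD4T cells, and regulatory T-cells (RegT) were not among them. The blood came from 11 wild type male C57BL/6 J mice, with 2 mice of 10 weeks and 3 each of 36, 77 and 101 weeks of age, and no treatment is named for any of them. Blood depleted of red cells was sorted one cell per well on a DNA stain with no surface marker, so that no cell was selected on the CD4 protein, and each plate held the cells of 1 mouse. Methylome and transcriptome were prepared from the same cell by scM&T-seq, and only the RNA is described here. The reads carry no molecular identifiers, so a count is a read and not a molecule.

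The 10 week mice gave 0 and 3 of these cells, the 36 week mice 1, 4 and 7, the 77 week mice 7, 7 and 12, and the 101 week mice 3, 4 and 5. Mice with at least 3 such cells numbered 9 and held 52 of the 53. Total counts per cell ran from 157578 to 760581 with a median of 434846, against 157049 to 1222914 over all annotated cells. Each of the 53 cells had its own identifier, and barcodes were not compared between the sequencing libraries. Age and sequencing lane were not independent, since all 12 cells of 101 weeks came from lane 2 while the 3 cells of 10 weeks came from lane 1, and the ages in between were split over both lanes. The study's class for red cell RNA was above 0 in 2 of 3 cells at 10 weeks, 11 of 12 at 36 weeks, 6 of 26 at 77 weeks and 1 of 12 at 101 weeks. Because the annotation was made from the RNA of these same cells, differences in RNA between them and other annotated cells are given below as description with no test, and only the age comparisons are tested, with the mouse as the replicate.

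A CD4+ T-cell that has met its antigen loses the receptors that hold naive cells in lymph nodes, gains receptors for inflamed tissue, and can secrete cytokines such as interferon gamma or interleukin 4. Most conventional T-cells rearrange their own combination of V and J segments for the alpha chain of the antigen receptor. A separate lineage, the invariant natural killer T-cells (NKT cells), joins the V segment Trav11 to the J segment Traj18, pairs this chain mostly with beta chains of the Trbv13, Trbv29 and Trbv1 segments, recognises lipids on CD1d, and in mice either carries CD4 or lacks both CD4 and CD8.

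Receptor segments whose reads recurred from cell to cell are shown. The sequences were read from the GENCODE M21 transcripts and their GRCm38 positions from the annotation, all on the plus strand. The second exon of Trav11 lies at chr14:53519569-53519859, and its capitals mark the bases that differ from the pseudogene Trav11n. Traj18 lies at chr14:54200777-54200842, and its capitals mark the stretch that encodes the phenylalanine-glycine motif conserved in J segments. The last 60 bases of the Trbv segments follow, at chr6:41121773-41121832 for Trbv13-2, chr6:41116409-41116468 for Trbv13-1, chr6:41271822-41271881 for Trbv29 and chr6:40891826-40891885 for Trbv1, with the codon of the conserved cysteine before the junction in capitals.
Trav11: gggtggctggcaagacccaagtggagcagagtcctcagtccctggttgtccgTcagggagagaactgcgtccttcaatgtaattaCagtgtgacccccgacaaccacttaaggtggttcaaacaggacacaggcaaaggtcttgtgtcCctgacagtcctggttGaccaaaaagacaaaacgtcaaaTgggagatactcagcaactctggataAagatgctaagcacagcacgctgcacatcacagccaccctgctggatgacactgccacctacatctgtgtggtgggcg
Traj18: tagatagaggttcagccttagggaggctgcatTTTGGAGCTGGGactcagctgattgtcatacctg
Trbv13-2: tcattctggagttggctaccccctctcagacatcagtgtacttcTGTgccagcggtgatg
Trbv13-1: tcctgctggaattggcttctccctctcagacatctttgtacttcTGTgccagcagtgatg
Trbv29: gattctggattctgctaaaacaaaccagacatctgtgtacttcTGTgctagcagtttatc
Trbv1: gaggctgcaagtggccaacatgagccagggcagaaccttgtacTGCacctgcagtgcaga

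Reads over both Trav11 and Traj18 were found in most of the 53 cells. With a minimum of 10 counts over Trav11, Trav11d and Trav11n together and at least 1 count over Traj18, 37 of 53 cells had both segments, which is 69.8% with an exact binomial 95% interval of 55.7 to 81.7%. Intervals, and the floors given for a count of 0 (the share that 3 counts would make), cover counting error only. Among EffCD4T cells the share was 35 of 45 (77.8%), and among MemCD4T cells 2 of 8 (25%). In all 978 annotated cells 39 had both segments, and 37 of these 39 were EffCD4T or MemCD4T cells (94.9%).

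The counts behind the pair stood well above these minimums. In the 37 cells the summed Trav11 family count was 60 to 716 with a median of 261, and the Traj18 count was 3 to 54 with a median of 12. Trav11 and its copy Trav11d are identical over the 342 exon bases compared, so that counting could not split them, and Trav11n differs at 8 of 343 bases. Trav11d took 10931 counts over the 53 cells, Trav11 756 and Trav11n 61, and the 3 are treated as 1 family. In 34 of the 37 cells this family had more counts than any other Trav gene.

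The pair was rare in the other annotated types. Naive CD4+ T-cells (NveCD4T) had it in 1 of 85 cells (1.18%), memory CD8+ T-cells (MemCD8T) in 1 of 106 (0.943%), and none of 13 RegT, 72 naive CD8+, 25 NK or 600 B-cells did. For these zeros the exact 95% upper limits are 24.7% of RegT cells, 4.99% of naive CD8+ T-cells, 13.7% of NK cells and 0.613% of B-cells. Median totals per cell were 434846 in the effector and memory cells, 368334 in NveCD4T and 546917 in MemCD8T cells. After drawing 150000 counts from every cell, Traj18 was seen in 71.7% of effector and memory cells, 7.06% of NveCD4T cells and 7.55% of MemCD8T cells, against 73.6%, 8.24% and 8.49% without the draw. These comparisons carry no test.

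**Figure D1:**
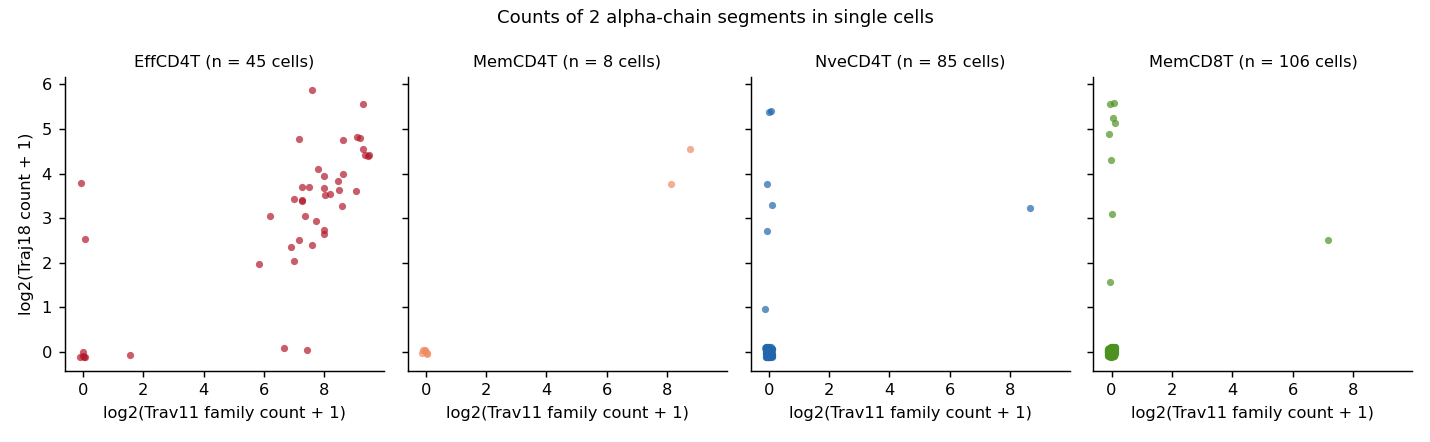
Each point is 1 cell, slightly jittered, with the log2 of its summed Trav11, Trav11d and Trav11n count plus 1 on the x axis and the log2 of its Traj18 count plus 1 on the y axis, in panels for 45 EffCD4T, 8 MemCD4T, 85 NveCD4T and 106 MemCD8T cells. The cells with both segments lie in the upper right, 35 of them in the EffCD4T panel, 2 in the MemCD4T panel and 1 in each of the others.

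Every mouse with 3 or more of the cells contributed to the group with both segments. The 10 week mouse had the pair in 3 of 3 cells. The 36 week mice had it in 0 of 1, 2 of 4 and 6 of 7 cells. The 77 week mice had it in 5 of 7, 5 of 7 and 9 of 12 cells. The 101 week mice had it in 1 of 3, 2 of 4 and 4 of 5 cells, which makes 7 of 12 (58.3%) at that age. The level of the 3 family genes together in the summed counts of each mouse was 652 CPM (counts scaled to a common total per mouse) at 10 weeks, 403 and 458 at 36 weeks, 842, 565 and 596 at 77 weeks, and 159.9, 234 and 330.4 at 101 weeks.

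The beta chains of these cells were drawn from few V genes. A leading Trbv gene with at least 10 counts could be named in 52 of the 53 cells, and 10 different genes occurred. Trbv13-2 led in 20 cells, Trbv13-1 in 10, Trbv29 in 9, Trbv1 in 5 and Trbv19 in 3, and the other 5 genes led in 1 cell each. The Trbv13 genes, Trbv29 and Trbv1 together led in 44 of 52 cells (84.6%), against 16 of 81 NveCD4T cells (19.8%), where 20 different genes occurred, and 30 of 101 MemCD8T cells (29.7%), where Trbv19 led in 25. Among the 37 cells with Trav11 and Traj18 these beta genes led in 34 (91.9%), and among the 15 others with a leading gene in 10 (66.7%).

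**Figure D2:**
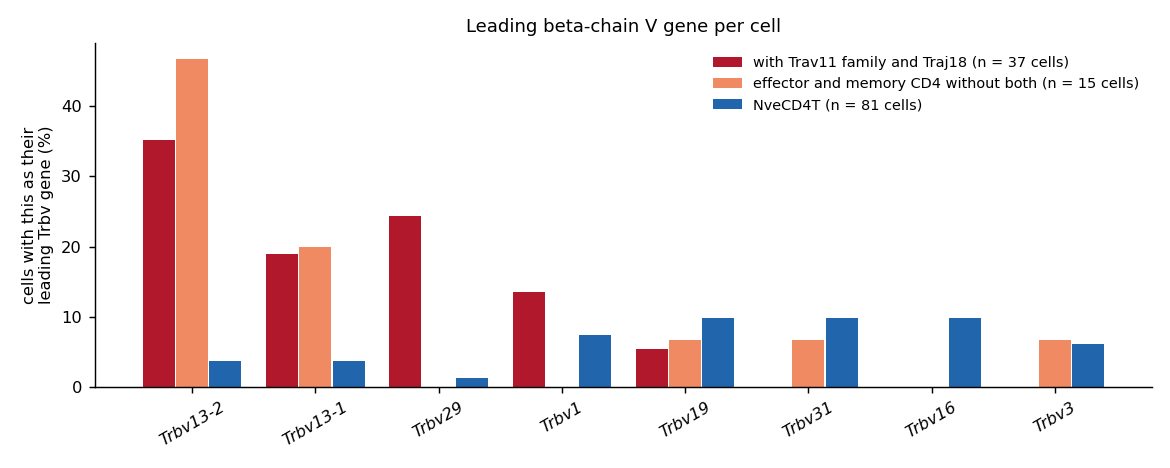
Bars give the percentage of cells in which each Trbv gene had the most counts, for effector and memory CD4+ T-cells with both Trav11 and Traj18 (37 cells) and without both (15 cells) and for NveCD4T cells (81 cells). Trbv13-2 led in 35.1%, 46.7% and 3.70% of them, and Trbv29 in 24.3%, 0% and 1.23%.

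Of the remaining 16 cells, 12 were led by another Trav gene. In 2 EffCD4T cells, both of 1 mouse of 77 weeks, the Trav11 family led with 184 and 98 counts and no Traj18 read was found, and 2 other EffCD4T cells had Traj18 counts beside Trav8d-2 or Trav8n-2. Trav16d-dv11, Trav16n, Trav19 and Trav4d-3 led in 1 EffCD4T cell each, and no Trav gene reached 10 counts in 2. The 6 MemCD4T cells without the pair were led by Trav7-5 in 2 cells and by Trav7-3, Trav9-2, Trav9n-3 and Trav19 in 1 each.

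The label was checked against the markers Cd4, S100a4, Ahnak and Lgals1, and Cd4 went against it in part. The receptor segments went against it too, since 37 of the 53 cells had the Trav11 and Traj18 pair described above for NKT cells. The name of the study's annotation is kept here, and whether the 37 are NKT cells was not tested. Cd4, the coreceptor for class II molecules, had a count in 12 of 53 cells (22.6%, exact interval 12.3 to 36.2%), with 8 of 45 EffCD4T and 4 of 8 MemCD4T cells. In NveCD4T cells it was counted in 40 of 85 cells (47.1%, and 45.9% at the drawn depth), in 6 of 13 RegT cells (46.2%, and 38.5% at the drawn depth) and in 1 of 106 MemCD8T cells, so that absence of a Cd4 read does not mark a cell as lacking CD4 at this depth. Among cells with Trav11 and Traj18 it was counted in 4 of 37 (10.8%), and among the 16 others in 8 (50%). Summed per mouse, Cd4 was at 0 CPM at 10 weeks, 366 and 128 at 36 weeks, 8.29, 24.2 and 120 at 77 weeks, and 237, 124 and 0 at 101 weeks. Neither Cd4 nor a Cd8 gene was counted in 39 of the 53 cells and in 33 of the 37. Cd8a and Cd8b1, the coreceptor of killer cells, were counted in 2 EffCD4T cells, both without the receptor pair.

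The other 3 markers were more often counted than in naive cells, but they also mark memory CD8+ T-cells and NK cells. Ahnak, a giant scaffold protein of activated lymphocytes, was counted in 49 of 53 cells (92.5%, and 90.6% at the drawn depth) and in 8 of 85 NveCD4T cells (9.41%, and 7.06% drawn). Lgals1, which encodes galectin, was counted in 46 cells (86.8%) and in 16 NveCD4T cells (18.8%). S100a4, a calcium-binding protein of motile cells, was counted in 22 cells (41.5%) and in 0 of 85 NveCD4T cells, a floor of 3.53%. In MemCD8T cells Ahnak was counted in 86.8%, Lgals1 in 84.0% and S100a4 in 20.8%, and in NK cells in 96, 96 and 24%. Per mouse, Lgals1 was 329 CPM at 10 weeks, 374 and 791 at 36 weeks, 547, 702 and 726 at 77 weeks, and 4729, 1023 and 511 at 101 weeks, where 1 mouse stood far above the rest.

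Of the 12 T-cell identity genes 8 were counted in at least 50% of cells. Trac, the alpha constant gene, was counted in all 53 cells, and Cd3d, a signalling chain of the receptor complex, in 52, while Zap70 was counted in 23, Cd5, an inhibitor of receptor signalling, in 18 and Cd247, the zeta chain, in 14. The constant genes of the gamma chain, Tcrg-C1, Tcrg-C2 and Tcrg-C4, share reads and were summed. At least 1 of them was counted in 23 of 53 cells (43.4%), all EffCD4T, against 0 of 85 NveCD4T and 17 of 106 MemCD8T cells (16%), and in 21 of the 37 cells with Trav11 and Traj18 (56.8%). Trdc, the delta constant gene, had a count in 5 cells.

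B-cell genes were near 0, while haemoglobin RNA was present. The B-cell genes Cd79a, Cd79b and Ms4a1 were at 0 in all 53 cells, a floor of 5.66%, and the 5 B-cell genes summed to between 0 and 1.35 CPM per mouse. The myeloid genes Lyz2, S100a8 and S100a9, the NK receptor gene Ncr1 and Foxp3, the regulator of regulatory T-cells, were also at 0 in all 53. Of the other NK genes Klrb1c was counted in 26 cells, Klra8 in 4 and Eomes in 1. The 4 haemoglobin genes summed to between 0 and 33293 CPM per mouse, with a median of 1236, the 5 myeloid genes to between 0 and 209.6 CPM, and the 3 platelet genes to between 0 and 299.5 CPM.

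Cxcr6, Ccl5 and Nkg7 stood highest against NveCD4T cells, and Fos, Ccr7 and Klf2 lowest. The comparison used the 6 mice with at least 3 cells of both annotations, none of them of 101 weeks, and of 2480 genes detected in at least 25% of either type 153 were higher and 151 lower in all 6. The 15 with the highest ratio were Cxcr6, Ccl5, Nkg7, Il2rb, Fgl2, Cd160, Ccr2, Plac8, S100a6, Cxcr3, Ifng, Xcl1, Chsy1, Cd7 and Klrb1c. The 10 with the lowest were Fos, Ccr7, Klf2, S1pr1, Nsg2, Actn1, Itga6, Klf7, Ctss and Dapl1. All values from here to the age comparisons that concern NveCD4T cells are descriptions, because such genes also shaped the annotation.

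Cxcr6, a chemokine receptor of tissue-resident T-cells and NKT cells, headed the list. It was 3565 CPM at 10 weeks, 1024 and 4693 at 36 weeks, 3730, 2926 and 2817 at 77 weeks, and 1713, 713 and 1221 at 101 weeks, a mean of 2489 ± 1386 (SD, n = 9 mice). In NveCD4T cells it was at 0 in all 8 mice with at least 3 such cells, and in MemCD8T cells it was 433 ± 344 CPM (SD, n = 11), so that the lowest of the 9 mice lay within the MemCD8T range. All 37 cells with Trav11 and Traj18 had Cxcr6 counts, as did 8 of the 16 others.

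Nkg7, a granule membrane protein, and Ccl5, a chemokine released from granules, were also counted in most cells. Nkg7 was counted in 49 of 53 cells and ranged from 1388 to 2888 CPM over the 9 mice, against at most 0.831 in NveCD4T and 1415 to 3125 in MemCD8T cells. Ccl5 was counted in 45 cells and ranged from 1777 to 8359 CPM, below the 6772 to 11134 CPM of MemCD8T cells in all but 1 mouse. Il2rb, the receptor chain shared by interleukins 2 and 15, was counted in 45 cells and was 1155 ± 751 CPM (SD, n = 9), with 1 mouse of 101 weeks at 21.4.

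The 18 genes of the effector and memory list were nearly all in use. 16 of them were counted in at least 25% of the 53 cells and 10 were higher than in NveCD4T cells in all 6 mice. Id2, which restrains E proteins in effector lymphocytes, was counted in 52 cells at 4372 ± 1788 CPM (SD, n = 9). Cd44, the classical surface mark of antigen experience, was counted in 27. Of the 8 genes of the Th1 list 7 were counted in at least 25% of cells and 6 were higher than in NveCD4T cells in all 6 mice. Cxcr3, a chemokine receptor of Th1 cells, ranged from 255 to 849 CPM over the 9 mice, and Tbx21, the Th1 master regulator, was counted in 18 cells.

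Both interferon gamma and interleukin 4 were transcribed in these blood cells. Ifng was 860 CPM at 10 weeks, 441 and 9.28 at 36 weeks, 680, 717 and 124 at 77 weeks, and 343, 166 and 637 at 101 weeks. Il4 was 4.44 CPM at 10 weeks, 0 and 113 at 36 weeks, 119, 73.6 and 25.6 at 77 weeks, and 0, 2.76 and 18.2 at 101 weeks. The groups of mice overlapped for both genes. Ifng was counted in 25 of 53 cells at 16 to 1400 counts (median 307), and Il4 in 17 (32.1%, and 30.2% at the drawn depth) at 2 to 225 counts (median 40).

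Il4 was counted in 0 of 85 NveCD4T, 0 of 106 MemCD8T, 0 of 13 RegT and 0 of 25 NK cells and in 0.333% of B-cells. Of the 53 cells 10 had both cytokines, 7 had Il4 alone, 15 had Ifng alone and 21 had neither. Trav11 and Traj18 were found in 9 of the 10 with both cytokines, 5 of the 7 with Il4 alone, 11 of the 15 with Ifng alone and 12 of the 21 with neither, beside 37 of 53 in all. Gata3, the regulator of Th2 cells, was counted in 27 cells, while Il13 and Ptgdr2 were at 0 in all 53.

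Several genes of the other helper programmes were at 0. The Th17 genes Il17a, Il17f, Ccr6, Il23r and Il22 were at 0 in all 53 cells, and Rora, which other lymphocytes also use, was counted in 23. Of the 8 follicular helper genes Cxcr5, Il21 and Tox2 were at 0, Bcl6, the regulator of that programme, was counted in 3 cells, Izumo1r in 5 and Pdcd1 in 2, while Sh2d1a, an adaptor of lymphocyte signalling, was counted in 27 cells and Icos, a costimulatory receptor, in 22.

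Of the 11 cytotoxic genes 4 were counted in at least 25% of cells, namely Nkg7 in 49, Ccl5 in 45, Ctsw in 38 and Runx3 in 26, and the granule effectors were rarer. Gzmb, a protease of killing granules, was counted in 13 cells and ranged from 0 to 2574 CPM over the mice, Prf1, which forms the pore, was counted in 3, and Gzma in 1. None of the 8 checkpoint genes reached 25% of cells.

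Genes that keep naive T-cells in circulation and in lymph nodes were low. Of the 12 naive genes 10 were lower than in NveCD4T cells in all 6 mice and Igfbp4 was at 0. Ccr7, the lymph node homing receptor, was counted in 2 cells, both MemCD4T, and was at 0 CPM in 7 of 9 mice, with 181 and 66.8 in the others, against 1092 to 3369 in NveCD4T cells. Klf2, which drives the exit receptor S1pr1, was counted in 9 cells. It was at 0 CPM at 10 weeks, 0 and 32.3 at 36 weeks, 0, 0 and 42.1 at 77 weeks, and 515, 213 and 298 at 101 weeks, against 248 to 1105 in NveCD4T cells. S1pr1 was at 0 CPM at 10 weeks, 27.9 and 10.3 at 36 weeks, 0, 0 and 57.6 at 77 weeks, and 194, 55.2 and 135 at 101 weeks. For Klf2 the oldest mice lay above all younger mice, but both genes were counted in 17.0% of cells and so fell below the detection filter of the age test. Fos, an early response gene below that filter too, was at most 4.77 CPM in the younger mice and 53.3, 324 and 509 CPM in the mice of 101 weeks, against 3.04 to 2049 in NveCD4T cells.

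**Figure D3:**
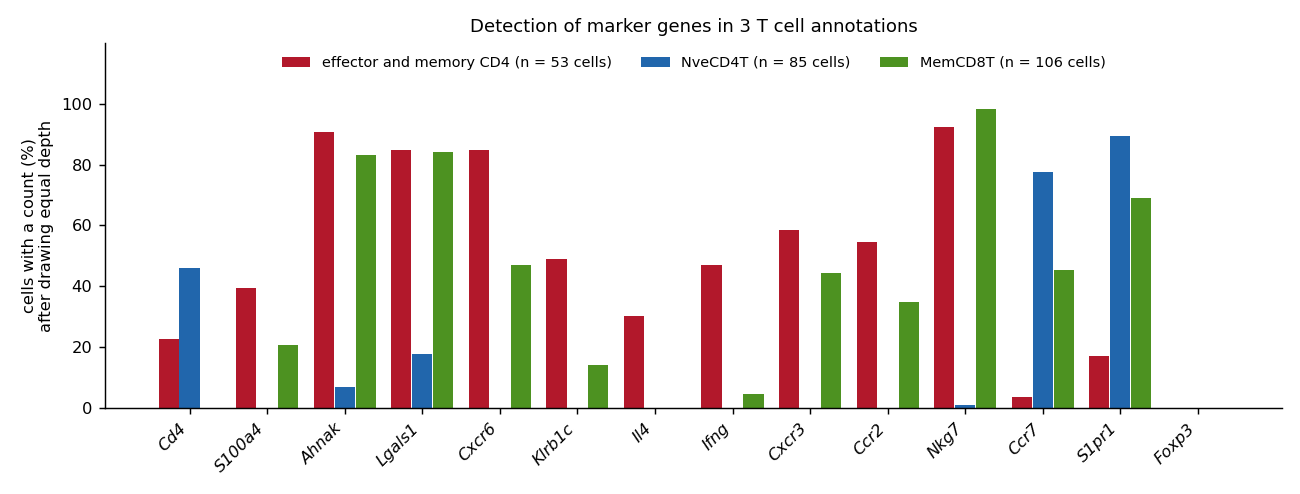
Bars give the percentage of cells with at least 1 count of each gene after 150000 counts were drawn from every cell, for effector and memory CD4+ (53 cells), naive CD4+ (85 cells) and memory CD8+ T-cells (106 cells). Cxcr6 was detected in 84.9%, 0% and 47.2% of these cells, and Ccr7 in 3.77%, 77.6% and 45.3%.

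Klrb1c and Klrk1, both NK-type receptor genes, were found mostly in the 37 of 53 cells with Trav11 and Traj18. Klrb1c, which encodes the NK surface antigen of C57BL/6 mice, was 732 CPM at 10 weeks, 33.3 and 241 at 36 weeks, 511, 185 and 544 at 77 weeks, and 238, 115 and 223 at 101 weeks, and was at 0 in NveCD4T cells. It was counted in 24 of the 37 cells and in 2 of the 16 others. Klrk1, an activating receptor, was counted in 23 of the 37 and in 1 of the 16. Klre1, another NK receptor gene, was counted in 15 of the 37 and 4 of the 16. Zbtb16, the transcription factor that directs NKT cell development, was counted in 7 of the 37 and in none of the 16, with 10 or more counts in 4 cells. Beside Trav11 and Traj18, which define the 37 cells, the NKT marker list held only Klrb1c and Zbtb16.

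The EffCD4T cells without the pair and the MemCD4T cells differed from this pattern in different genes. Of the 35 EffCD4T cells with both segments, from 9 mice, 11 had Ccr9, a gut homing receptor, and 0 had Gzmk, a granzyme of memory cells. Of the 10 EffCD4T cells without both, from 6 mice, 0 had Ccr9, 3 had Gzmk, 10 had Nkg7 and 8 had Cxcr6. Of the 6 MemCD4T cells without both, from 6 mice, 0 had Cxcr6, 2 had Nkg7, 1 had Ccl5 and 0 had Ifng.

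Some adhesion and survival receptors, but not others, were counted in most of those 6 MemCD4T cells. All 6 had Itga4 and Itgb1, the 2 chains of the integrin that binds VCAM. All 6 had Il7r, the interleukin 7 receptor, and 5 had S1pr1. Of other adhesion genes, Itgb7 was counted in 4 of them, Itgb2 and Selplg in 3 each, Itgal in 1 and Itgae in 0. Itga4 was counted in 5 and Itgb1 and Il7r in 18 each of the 35 EffCD4T cells with both segments, and Itga4 in 5 and Itgb1 in 6 of the 10 without. In NveCD4T cells Il7r was counted in 74, S1pr1 in 78 and Itga4 in 42 of 85, and Itgb1 in 7. The 2 MemCD4T cells with both segments had Cxcr6 and Klrk1 counts and no Itga4. These subsets are small and were set up after the receptor genes had been seen, and no test was run on them.

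Between single cells the genes of widest spread were high in some cells and absent from others. By the SD over cells of log2(CPM + 1) the 10 leading genes were Klrk1, Fgl2, Cd160, Klre1, Cd7, Ldha, Ccr2, Cd48, Ly6c2 and Sptssa, and the SD of Klrk1 was 5.54. Klrk1 was counted in 24 cells of 8 mice at a median of 1792 CPM. Fgl2, a secreted inhibitor of T-cells, was counted in 35 cells at a median of 1351 CPM, and Cd160, an inhibitory and costimulatory receptor, in 32 at 1038 CPM. Cd48, an adhesion molecule, was counted in 22 of the 37 cells with the receptor pair and 12 of the 16 others.

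With age, these cells made up a growing share of the cells annotated as CD4+ T-cells, a total that rests on the annotation and not on Cd4 reads. Their share of all EffCD4T, MemCD4T, NveCD4T and RegT cells was 0 and 21.4% in the 10 week mice, 6.67, 25 and 43.8% in the 36 week mice, 35, 46.7 and 70.6% in the 77 week mice, and 100, 50 and 83.3% in the 101 week mice. Neighbouring ages overlapped, while both mice of 10 weeks lay below all mice of 77 and 101 weeks. The means were 10.7 ± 15.2% (SD, n = 2), 25.1 ± 18.5% (n = 3), 50.8 ± 18.1% (n = 3) and 77.8 ± 25.5% (n = 3).

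Over the 11 mice the share rose with age with Pearson's r = 0.826 (permutation test, two-sided, p = 0.00183, adjusted p = 0.00366 over the 2 shares tested) and Spearman's rho = 0.853 (permutation p = 0.00147, adjusted 0.00294). The 2 mice furthest from the median age were both of 10 weeks, and without them r was 0.767. In the 7 mice with cells in lane 2 r was 0.880 (exact permutation p = 0.00873), and the 5 mice with cells in lane 1, fewer than the 6 taken as the least for a correlation, had shares of 21.4% at 10 weeks, 25 and 43.8% at 36 weeks and 46.7 and 70.6% at 77 weeks. The 101 week shares rest on 3, 8 and 6 CD4+ T-cells.

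NveCD4T cells, which enter this total, became few at the oldest age. They numbered 20 and 9 in the 10 week mice, 13, 11 and 6 in the 36 week mice, 12, 8 and 4 in the 77 week mice, and 0, 1 and 1 in the 101 week mice. As a share of all annotated cells the effector and memory cells were 1.70 ± 2.41% (SD, n = 2) at 10 weeks, 4.49 ± 3.34% (n = 3) at 36 weeks, 9.50 ± 3.07% (n = 3) at 77 weeks and 4.54 ± 1.10% (n = 3) at 101 weeks. This share had r = 0.421 with age (permutation p = 0.2) and rho = 0.312 (permutation p = 0.347). With the 2 mice of 10 weeks left out r was 0.118. The 37 effector and memory cells with Trav11 and Traj18 were also left out of members and total. The NveCD4T cell that had the pair was kept in the total. The share of CD4+ T-cells then had r = 0.762 (permutation p = 0.00164). Its 101 week values rest on 2 of 2, 2 of 6 and 1 of 2 cells.

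The cells of the oldest mice had more genes detected. After drawing 150000 counts per cell, the mean number of genes per cell was 2778, 2738 and 2999 in the 101 week mice, against 2184 at 10 weeks, 2414 and 2345 at 36 weeks, and 2273, 2578 and 2218 at 77 weeks. The groups did not overlap. The difference was 503 genes, with 2838 ± 140 (SD, n = 3) against 2335 ± 146 (n = 6), and the exact permutation test over mice gave p = 0.0119, two-sided, the smallest that this design allows. In cells with Trav11 and Traj18 the difference was 699 genes (exact permutation p = 0.0119), with no minimum of cells per mouse, so that the means at 101 weeks rest on 1, 2 and 4 cells. Within lane 2, which holds all cells of 101 weeks, it was 526 genes between 3 and 2 mice, where the exact test cannot go below 0.1.

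**Figure D4:**
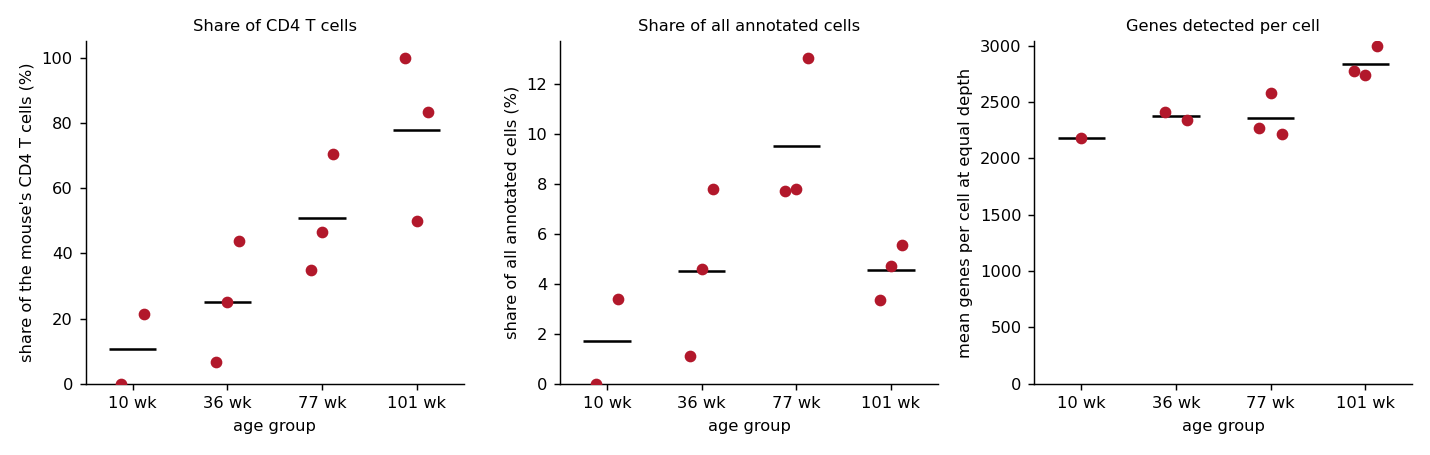
Each point is 1 mouse, placed by age group in weeks, and the horizontal line is the mean of the mice. The share of CD4+ T-cells had means of 10.7, 25.1, 50.8 and 77.8%, the share of all annotated cells 1.70, 4.49, 9.50 and 4.54%, and the mean number of genes per cell at equal depth, in mice with at least 3 of the cells, was 2738 to 2999 at 101 weeks against 2184 to 2578 at younger ages.

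No single gene passed the main age test, edgeR's, in the summed counts of the 9 mice, and the count of calls depended on the tool. The slope on age was tested by edgeR's quasi-likelihood test over 1908 protein-coding genes, and 0 genes (0% of those tested) had an adjusted p below 0.1, with 100 genes (5.24%) at an unadjusted p below 0.05. For the oldest mice against all younger mice edgeR likewise called 0 genes (0%), with 73 (3.83%) at an unadjusted p below 0.05. DESeq2 on the same sums called 77 genes (4.04%) for the slope, 63 higher (3.3%) and 14 lower (0.734%) with age, and 27 (1.44%) for the oldest mice, 9 higher (0.481%) and 18 lower (0.963%). Of the DESeq2 calls 63 of 77 and 27 of 27 had an unadjusted edgeR p below 0.05, and limma called 2 and 0. The 10 week group holds 1 mouse of 3 cells. The p-values measure the spread between the sums of mice, which includes the sampling of few cells per mouse. With so few mice and cells, a 0 in edgeR does not show that no gene changed.

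Selplg, the selectin ligand on leukocytes, had the smallest p for the slope. It was 141 CPM at 10 weeks, 236 and 182 at 36 weeks, 368, 374 and 450 at 77 weeks, and 954, 932 and 889 at 101 weeks, so that the oldest mice lay apart from the rest. The slope was 0.30 ± 0.05 (SE) log2 units per 10 weeks with an edgeR adjusted p of 0.231, and DESeq2 called it. All 12 cells of the oldest mice had Selplg counts, against 23 of the 40 younger cells. The share of cells with Trav11 and Traj18 in the oldest mice was 33.3, 50 and 80% against 50 to 100% in the younger, and the part of this share, of the lane and of the higher number of genes detected at 101 weeks in this or the following differences was not tested.

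The other 4 genes leading the slope upwards were Malt1, a protease of antigen receptor signalling, and Sfpq, Clk1 and Luc7l, which act in splicing. Malt1 was 306 to 537 CPM in the oldest and 0 to 234 in the younger mice, and Sfpq 120 to 274 against 0 to 106, and both had an edgeR adjusted p of 0.799. The 5 leading downwards were Gja1, Slc25a5, Man2c1, Iqcb1 and Zap70. Slc25a5, the mitochondrial exchanger of ADP and ATP, was 3098 CPM at 10 weeks, 2044 and 1922 at 36 weeks, 1304, 1280 and 1628 at 77 weeks, and 781, 876 and 1402 at 101 weeks. Its slope was -0.17 ± 0.03 (SE) log2 units per 10 weeks with an edgeR adjusted p of 0.235. Gja1, Man2c1 and Iqcb1 each had 10 or more counts in 1 of the 52 cells, so that their slopes rest on that cell.

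In the oldest mice against the younger, the lowest p-values upwards were those of Xpnpep1, Nfia, Ttc7b, Dcaf1 and Plscr4. Xpnpep1, an aminopeptidase, was 68.0, 67.6 and 218 CPM in the oldest and at most 1.78 CPM in the younger mice, with 10 or more counts in 5 of 12 cells against 0 of 40, and its edgeR adjusted p was 0.333. Nfia, Ttc7b, Dcaf1 and Plscr4 reached 10 counts in 2, 3, 4 and 1 of the 12 cells.

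The 5 leading downwards were Ccnd2, Capzb, Id2, Ccr2 and Cd3d, and Ccr2 was counted in 31 of 53 cells, Cd3d and Id2 in 52 each. Ccnd2, a cyclin of G1 phase, was 1586, 1346 and 1174 CPM in the oldest and 1916 to 3208 in the younger mice, a difference of -0.88 ± 0.21 (SE) on the log2 scale with an edgeR adjusted p of 0.621. Ccr2, a receptor that leads cells to inflamed tissue, was 57.0, 282 and 300 CPM in the oldest and 410 to 1303 in the younger mice, a difference of -2.08 ± 0.60 with an edgeR adjusted p of 0.825. Cd3d was 1034, 1171 and 952 CPM against 1197 to 1893. For all 5 the groups of mice lay apart except Id2, where the highest of the oldest (2967 CPM) stood above the lowest of the younger (2806 CPM). Over all 1908 genes the oldest mice lay wholly above or below the younger in 65 (3.41%).

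**Figure D5:**
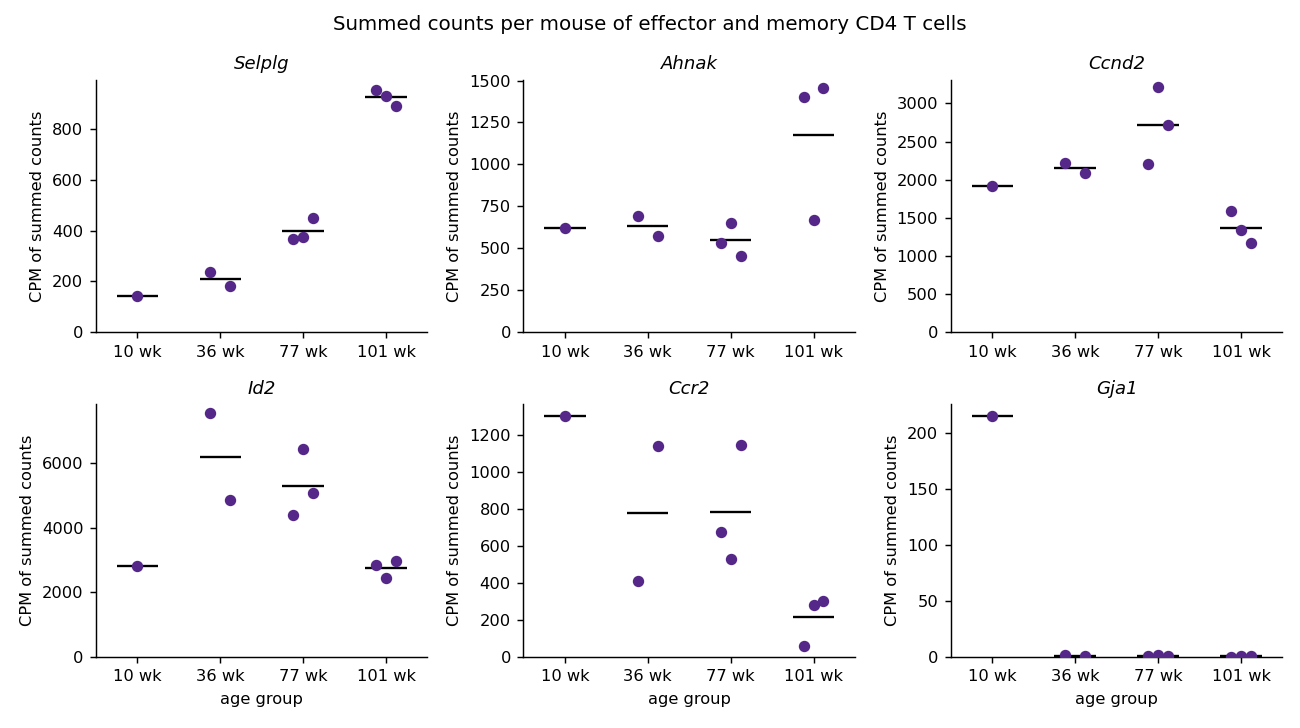
Each point is the summed count of 1 mouse in CPM for Selplg, Ahnak, Ccnd2, Id2, Ccr2 and Gja1, placed by age group in weeks, and the horizontal line is the mean. The 101 week mice lie above all others for Selplg and below all others for Ccnd2 and Ccr2, 2 of them stand apart for Ahnak, and Gja1 rests on the mouse of 10 weeks at 215 CPM.

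The gene lists gave no edgeR call with age either. Of the effector and memory list 15 genes were tested, 0 passed in edgeR, and 11 had a positive difference in the oldest mice, with a median of 0.49 on the log2 scale against -0.03 over all 1908 genes. Lgals1 and Ahnak were among those with a positive difference, and without the 101 week mouse that stood at 4729 CPM the Lgals1 values of that age, 1023 and 511, were within or above the younger range of 329 to 791. Of the T-cell identity list 8 were tested and 0 passed in edgeR, with a median of -0.52, and of the 9 homing genes 0 passed, with a median of -0.18. Of the 10 interferon response genes 4 could be tested and 0 passed in edgeR, with negative differences in all 4 for the oldest mice and with 2 positive and 2 negative slopes. For the oldest mice DESeq2 called Lgals1 and Selplg higher and Cxcr6, Id2, Ccr2 and Cd3d lower, and for the slope it called Lgals1, S100a6, Ly6c1, Selplg and Nlrc5 higher and Zap70 lower.

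Of 9 genes that an earlier re-analysis of the deposited counts, made apart from the study, had called with age in all CD4+ T-cells, 8 could be tested in the effector and memory cells. They were Ahnak, S100a6, H2-K1, S100a11, Fth1, Rplp0, Gja1 and Nfia, and 0 of 8 passed edgeR's adjusted p of 0.1, while DESeq2 called S100a6 and Nfia higher and Gja1 lower on the slope and limma called Fth1. Ahnak was 1400, 670 and 1455 CPM in the oldest and 454 to 694 in the younger mice, a difference of 0.94 ± 0.30 (SE) on the log2 scale with an edgeR adjusted p of 0.825. Fth1, the heavy chain of ferritin, was 2681, 3533 and 2326 CPM in the oldest and 1393 to 2650 in the younger mice, with a slope of 0.10 ± 0.03 (SE) log2 units per 10 weeks and an edgeR adjusted p of 0.834. H2-K1, a class I molecule, was 3808 to 4456 CPM against 2446 to 3992. Since these calls came from tests that included the same cells, their direction here is not independent of them.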

How the data were processed

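The deposited file holds counts of reads per gene and cell. According to the methods and the labels, the authors used Trim Galore 0.6.7 for trimming, STAR for alignment to GRCm38 and featureCounts for reads per gene, after oligo-dT capture without molecular identifiers. Annotations and ages came from the study's cell table. Of 1055 columns 981 are listed there and 978 annotated, and 74 columns of no listed cell were not used. All 38788 genes matched GENCODE M21. CPM scale counts to a common total of a cell or of a mouse's sum. Counts were summed per mouse (at least 3 cells) and tested with edgeR 4.0.16 (TMM, robust quasi-likelihood) on protein-coding genes seen in at least 25% of cells and in at least 5 cells at 2 ages, with Benjamini-Hochberg adjustment and a threshold of 0.1; DESeq2 1.42.0 and limma 3.58.1 were alternatives, and the fits were tested on simulated data, where edgeR at this size recovered none of the changed genes on the slope and few for the oldest mice. Named for age were the 10 genes of smallest p past the threshold in each direction or, with fewer than 5, the 5 of smallest p. Named against naive cells were the 15 highest and 10 lowest log2 ratios of mean CPM + 10 going one way in every mouse; named for variation were the 10 largest SDs over cells. Doublets were not called; no cell was left out for total counts. Members and lists were chosen with earlier results of these data known. One gene of the lists is not reported here.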

Additional observations from a re-analysis of the deposited data

Results flagged for a closer look

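Of 29 groups of mice examined for a value far from the rest, 5 held one, all among the 6 younger mice, and chance alone flags about 1 in 20 such groups. Most of these groups are genes chosen by their age tests, so this count cannot be read against that share. Gja1 was 215 CPM in the mouse of 10 weeks and at most 1.76 CPM in the other younger mice. Iqcb1 was 239 CPM in the same mouse and at most 4.85 CPM in the others, and Zap70, a kinase of the receptor complex, was 1384 CPM there and at most 222 CPM in the others. Man2c1 was 88.5 CPM in 1 mouse of 36 weeks and at most 2.66 CPM in the others. Luc7l was 314 CPM in 1 mouse of 77 weeks and at most 90.1 CPM in the others. For Gja1, Iqcb1 and Man2c1 a single cell held 10 or more counts.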

How the results depend on the processing

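The count of genes called for the slope was 0 in edgeR and rose to 77 with DESeq2 and 2 with limma, which named Fth1 (0.34 per 10 weeks, adjusted p = 0.0863) and Mrpl18 (-0.78, adjusted p = 0.0929); leaving out 1 mouse at a time gave 0 to 1, the 1 being Itga4 without the 36 week mouse of 4 cells that stood at 1345 CPM (edgeR slope 1.38 ± 0.16 per 10 weeks, adjusted p = 0.0158). For the oldest mice it was 0 in edgeR, 27 with DESeq2 and 0 with limma and on leaving out any mouse. The difference in genes detected was 487 in cells of red cell class 0 and 526 in lane 2, both at the smallest exact p their sizes allow (0.1), and 423 to 553 on leaving out a mouse. The correlation of the share with age was 0.421 over all annotated cells, and 0.777 to 0.870 on leaving out a mouse. Of 1121 values of single named genes under the alternatives 25 passed the threshold, 24 of them with DESeq2, and 35 had the other sign, none of them called. The cause of these changes was not tested. Settings restricted to cells with Trav11 and Traj18, or leaving those cells out, were chosen after seeing the data. No paired analysis was possible because each mouse has 1 age and the age groups share no replicate numbers. With 1 to 12 cells per mouse, genes counted in few cells rest on single cells.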

Other observations

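Only 2 of the 39 cells with at least 10 Trav11 family counts and a Traj18 count were annotated otherwise. The cell annotated NveCD4T, from a mouse of 77 weeks, had 387 family counts and 9 of Traj18, with 190 counts of Cd4, 244 of Ccr7 and 0 of Cxcr6 and Klrb1c. The cell annotated MemCD8T, from another mouse of 77 weeks, had 132 family counts and 5 of Traj18, with 1655 counts of Cxcr6, 402 of Klrb1c and 0 of Cd4, Cd8a and Cd8b1.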
